A study of Mus musculus with 12 samples.

Results

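The heat shock protein, J-protein and chaperonin genes were examined in C2C12, a myoblast line from mouse that forms muscle fibres in low serum. Members were chosen by name. They are the genes called Hspa, Hspb, Hspd, Hspe or Hsph with a number, those starting with Hsp90, Dnaja, Dnajb or Dnajc with a number, Cct with a number, and Tcp1. Of 82 such genes with a matched transcript, 74 had a TPM (a transcript level scaled for length and for the library's total) of at least 1 in at least 3 of the 12 libraries. These 74 are among 13076 genes that passed the same rule. Their classes follow the symbol alone. The members are 8 small heat shock proteins, 14 genes of HSP70 and HSP110, 3 of HSP90, 2 of HSP60 and HSP10, 4, 10 and 25 J-proteins of types A, B and C, and 8 subunits of the cytosolic chaperonin. The other 8 genes were below the rule in every library, with a highest TPM of 0.695 for Dnajb13.

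Poly(A) RNA was sequenced from 4 groups of 3 libraries. All cells carried an siRNA, either a non-targeting one (siControl) or a single sequence against Kctd10 (siKctd10), whose product is an adaptor of CUL3 ubiquitin ligases. D0 groups were undifferentiated cells kept below confluence in 10% FBS, and D2 groups were cells switched to 2% horse serum 24 h after the siRNA to differentiate. The labels state 48 h of siRNA for all cells, which leaves less than 2 days in low serum, and how long D2 cells were treated is therefore unclear. Whether replicates were separate cultures is not stated, and the spread that the p-values rest on may be technical. In bulk RNA, fewer cells of a type and less RNA per cell cannot be told apart.

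Molecular chaperones bind unfolded proteins and help them fold, or hold them until they can be refolded or degraded. HSP70 proteins work in cycles of ATP hydrolysis that J-proteins start and exchange factors such as HSP110 reset, and HSP90 takes over later clients such as kinases. HSP60 with its lid HSP10 folds proteins inside mitochondria, the chaperonin CCT (also called TRiC) folds actin and tubulin in the cytosol, and small heat shock proteins hold proteins without ATP. In muscle, small heat shock proteins and their partners are found at the Z-disc, where the contractile filaments are anchored.

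Sequences from RefSeq promoters on GRCm38.p6 (250 bases before to 50 after each start site) show where family members carry stress elements. Of the 74 members, 60 had a promoter in that table. A heat shock element, the binding motif of the heat shock factor HSF1, was searched on both strands as 3 units, GAA, TTC and GAA, with 2 bases of any kind between neighbours. It was found in 179 of 27025 genes (0.662%), of which 4 were members. The windows below are 5′ to 3′ on the gene's strand, with the fixed letters of the motif in capitals. They are shown because Hspd1 and Hspe1, whose levels are set side by side further on, share the stretch with the element.
Hspd1 (chr1:55088050-55088079, minus strand): gccttccgGAAggTTCtaGAAcggaccgtg
Hspe1 (chr1:55088056-55088085, plus strand): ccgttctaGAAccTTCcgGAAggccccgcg
Dnajb6 (chr5:29735844-29735873, plus strand): agctccgaGAAtcTTCcgGAAcgctagacc
Hsph1 (chr5:149636279-149636308, minus strand): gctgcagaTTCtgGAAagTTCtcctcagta
Hspd1 and Hspe1 lie head to head, with their nearest start sites 95 bases apart. The first and second windows overlap and show the shared DNA from opposite strands. That DNA holds 2 overlapping matches, and the capitals mark a different match in each window. The ER stress element, bound with ATF6, was searched on both strands as CCAAT and CCACG with 9 bases of any kind between them. It was found in 37 genes (0.137%), of which 3 were members, all of them chaperones or co-chaperones of the endoplasmic reticulum. Hsp90b1 had a second match on the opposite strand, starting 107 bases before its start site, which is not printed.
Hspa5 (chr2:34772020-34772049, plus strand): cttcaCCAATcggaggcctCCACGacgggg
Hsp90b1 (chr10:86705632-86705661, minus strand): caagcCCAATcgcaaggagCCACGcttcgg
Dnajc3 (chr14:118937822-118937851, plus strand): cacaaCCAATcagcgccaaCCACGacccgg

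Depth, estimated from coverage, ran from 12.51 to 18.08 (read pairs over 1000000). The target of the siRNA was low in every siKctd10 library. Kctd10 TPM was 258 to 272 in siControl and 20 to 24.8 in siKctd10 at D0, and 276 to 289 and 26.8 to 35.1 at D2. The myoblast markers Myod1, Myf5, Des, Cdh15 and Pax7 (5 of 5 kept) summed to 535 to 539 TPM in D0 siControl, 528 to 670 in D0 siKctd10, 1692 to 1771 in D2 siControl and 1327 to 1624 in D2 siKctd10. The 6 myocyte markers Myog, Myh3, Ckm, Acta1, Tnnt3 and Mymk were all kept and summed to 92.7 to 124 TPM in D0 siControl and 155 to 212 in D0 siKctd10. At D2 they summed to 2071 to 2432 in siControl and 1374 to 1793 in siKctd10. The siRNA groups did not overlap in the myocyte sum on either day, with siKctd10 higher at D0 and lower at D2. Acta1 held most of the D0 sum (mean 87.4 TPM in siControl and 169 in siKctd10). It rose by 0.94 (limma adjusted p = 0.017) and was the 1 myocyte marker called at D0. Of the others, Myh3 had a higher D0 mean in siKctd10 (2.53 and 3.63 TPM). Myog (12.1 and 10.1) and Mymk (4.7 and 3.3) had lower ones. The myoblast sum was lower in every D2 siKctd10 library than in every D2 siControl library. Of other cell types, 1 of 5 macrophage, 0 of 4 endothelial, 1 of 5 adipocyte and 0 of 4 neuron markers were kept, with summed TPM of at most 2.9, 1.65, 26 and 1.05. The adipocyte marker kept, Cebpa, was called higher in siKctd10 at D2 (1.03), with means of 11.9 TPM in siControl and 25.2 in siKctd10. The adipocyte markers Adipoq, Plin1, Fabp4 and Lep were at 0 in every library. The siKctd10 libraries numbered 3 stood apart from the others of their groups on the second principal component (-42.4 on both days, against -20.3 to -1.2 for the other siKctd10 libraries). Leaving both out gave 1, 2, 25 and 26 members called at D0, at D2, between days in siControl and between days in siKctd10, and 1 in the interaction in place of 2.

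Estimates differed in firmness between members. In 24 members a single deposited transcript shared no exon base with another on its strand (called single-transcript here), and 50 had several or overlapping transcripts. Where the mean TPM was 5 or more, 0 of 19 single-transcript members and 15 of 47 others spread more than 3-fold between libraries of 1 group. Dnaja1, an HSP40 partner of HSP70, is the extreme, with 220, 3.35 and 220 TPM in the 3 D0 siControl libraries. Hspb1, the ubiquitous HSP27, gave 2212, 1637 and 455 TPM there. Such members are uncertain, and results below name the kind where it matters.

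The family held 1.48 to 1.58% of all TPM in D0 siControl, 1.47 to 1.78% in D0 siKctd10, 1.2 to 1.31% in D2 siControl and 1.1 to 1.28% in D2 siKctd10. The ranges of the days did not overlap in either arm. The most abundant single-transcript members were Hsp90ab1, the constitutive cytosolic HSP90 (1322 to 2294 TPM in siControl), the chaperonin subunit Cct5 (530 to 1038), and the ER-resident Hsp90b1 (670 to 904). Hspa5, the HSP70 of the endoplasmic reticulum (BiP), with several transcripts, was at 1332 to 1734 TPM over all 12 libraries.

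The first question was which chaperones differed after Kctd10 siRNA in undifferentiated cells. Only 1 of 74 members passed at D0 (limma on log2(TPM + 1), Benjamini-Hochberg adjusted p under 0.05 over all genes), against 2.45% of all genes tested (0.964% lower). That member was Hspd1, the mitochondrial HSP60. Its TPM was 331, 430 and 410 in siControl and 158, 168 and 186 in siKctd10. All 3 siKctd10 values were under the lowest siControl value. Hspd1 fell by 1.18 on the log2 scale (SE 0.11, adjusted p = 0.00069), from 390 ± 52.1 to 171 ± 14.2 TPM (SD, n = 3 each). The call held under every alternative run, with a difference of -1.30 to -1.11.

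Hspe1 encodes the HSP10 lid that works with HSP60. Its TPM was 214, 223 and 207 in siControl and 221, 214 and 184 in siKctd10, and the groups overlapped. The difference was -0.06 (SE 0.08, adjusted p = 0.77). Both genes are single-transcript, and their promoter windows shown above overlap. A test of the difference between the 2 genes' responses was not run. Hspa9 (mortalin, the mitochondrial HSP70) was at 454, 535 and 463 TPM in siControl and 524, 526 and 1047 in siKctd10. Only library 3 of siKctd10 was far from the rest, and the difference of 0.45 did not pass (SE 0.26, adjusted p = 0.45).

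The siRNA itself shares letters with Hspd1. The sense strand of siKctd10, taken from the series' design text and written in DNA letters, is printed with the 7 bases that pair with guide bases 2 to 8 in capitals. The sites in Hspd1 and Tcp1, on GRCm38 in GENCODE transcripts, follow. These are the members with a match that had the lowest D0 differences. Capitals mark the bases paired without a gap from guide base 2 on.
siKctd10 sense strand: ccagcaattctGACGATAa
Hspd1, 3′ UTR (7-base match at chr1:55078131-55078137, minus strand): ctggtttccttTGACGATAtata
Tcp1, coding sequence (7-base match at chr17:12924420-12924426, plus strand): ccagaaagcaaaGACGATAaaca
In Hspd1 the pairing ran over 8 bases from guide base 2, and the first guide base did not pair. In Tcp1 it ran over 7 bases from guide base 2. The small letter after them in Tcp1 pairs with the first guide base as well. Hspd1 was the only member with a 3′ UTR match, and 6 members had a match anywhere in a coding transcript. The other 4 were Dnajc30, Dnajc22 and Hspa9 in the coding sequence and Dnajc11 in the 5′ UTR, and their D0 differences were -0.52, -0.32, 0.45 and 0.05, none of which passed. Of 12044 kept genes with a coding transcript, 160 (1.33%) had a 3′ UTR match, and 13 of these (8.12%) were called lower at D0. Among the 11884 genes without one, 111 (0.934%) were called lower. At D2 the counts were 11 of 160 (6.88%) and 230 of 11884 (1.94%). These shares are a description with no test, and the part of the match in the lower Hspd1 level was not tested.

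**Figure D1:**
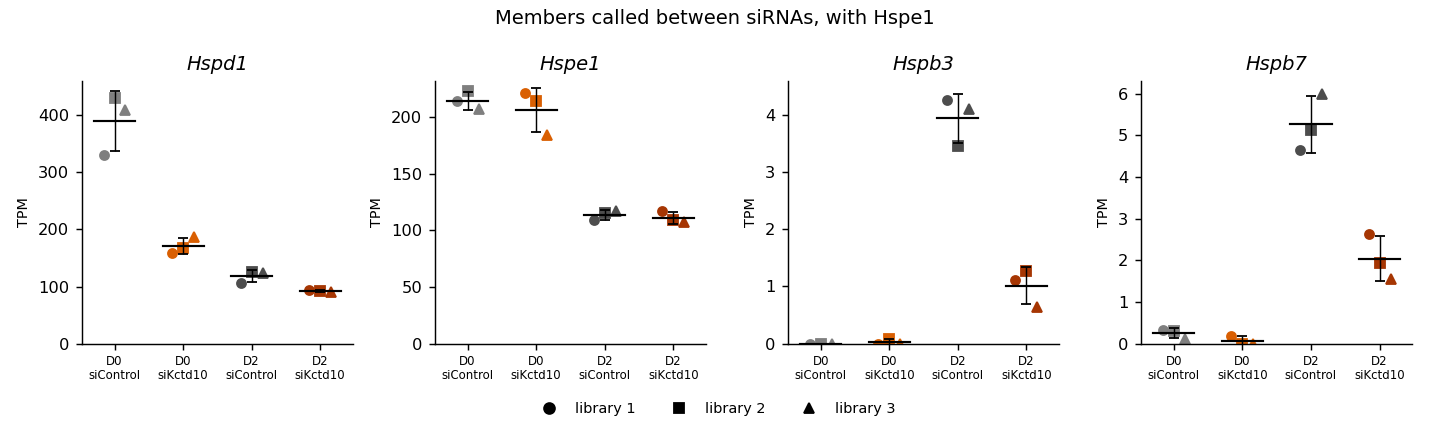
TPM of Hspd1, Hspe1, Hspb3 and Hspb7 in each library (y axis, from 0) by group (x axis), with the mean as a line and the SD as a bar (n = 3). Hspd1 was at 158 to 186 in D0 siKctd10 against 331 to 430 in D0 siControl, while Hspe1 overlapped, and Hspb3 and Hspb7 were lower in siKctd10 at D2.

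No other member passed at D0. The median difference was -0.01 over the 74 members and 0.045 over all genes, 37 members were above 0, and 8 members were at an unadjusted p under 0.05. The 12 members whose groups did not overlap compare with 23.2% of all genes. The heat-inducible Hspa1a, Hspa1b and Dnajb1 did not pass. Of the 4 members with the heat shock element, Hspd1 was the one that passed, as lower. Hsph1 gave 0.75 (SE 0.35, adjusted p = 0.33), Dnajb6 -0.30 (SE 0.67, adjusted p = 0.88) and Hspe1 -0.06. The inducible Hsp90aa1 gave 0.73 (SE 0.35, adjusted p = 0.35). Hspa1a and Hspa1b, the stress-inducible HSP70s, are near-identical neighbours whose reads can be split between them. Hspa1b was at 55.2, 59.1 and 56.3 TPM in siControl and 61.3, 60.9 and 58.8 in siKctd10 at D0, a difference of 0.09 (SE 0.09, adjusted p = 0.70). Hspa1a ranged from 20.9 to 28.5 TPM over all 12 libraries. Dnajb1, the HSP40 induced by heat, ranged from 114 to 134, with a D0 difference of 0.03 (SE 0.06, adjusted p = 0.89).

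Tcp1, the first chaperonin subunit, was at 439, 740 and 635 TPM in D0 siControl and 220, 417 and 276 in D0 siKctd10. The groups did not overlap, but the difference of -1.01 did not pass (SE 0.30, adjusted p = 0.13), and Tcp1 has several transcripts. Cct2 was at 512, 443 and 483 against 395, 388 and 390 TPM, also without overlap and not past the threshold (-0.29, SE 0.11, adjusted p = 0.24). Cct3, with several transcripts, lay the other way, at 157, 132 and 117 TPM in D0 siControl and 287, 337 and 306 in D0 siKctd10. Its groups did not overlap either, and its difference of 1.2 did not pass (SE 0.62, adjusted p = 0.39), though it did in a fit of these groups alone (adjusted p = 0.041). The class median was -0.08.

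At D2, 2 of 74 members passed between the siRNAs, against 4.75% of all genes (1.92% lower). Both are muscle small heat shock proteins and both were lower in siKctd10. They had passed the filter on TPM only through the D2 libraries, so a difference between days in them was needed for them to be tested. Hspb3, known from motor neuron and muscle disease, was at 4.27, 3.46 and 4.11 TPM in siControl and 1.11, 1.27 and 0.647 in siKctd10. Its levels rest on an estimated 13 to 20 read pairs per siControl library and 3 to 7 per siKctd10 library. Hspb3 fell by 1.31 on the log2(TPM + 1) scale (SE 0.14, adjusted p = 0.001). Library 3 of D2 siKctd10 was under the TPM of 1 that the filter asks for. Hspb3 therefore passed the filter only with the D2 siControl libraries, where it was higher, and its D2 test is not independent of that choice.

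Hspb7, the cardiovascular small heat shock protein that binds filamin C, was at 4.65, 5.13 and 6 TPM in D2 siControl and 2.62, 1.94 and 1.56 in D2 siKctd10. The groups did not overlap, and 70 to 97 estimated read pairs stood against 25 to 41. Hspb7 fell by 1.05 (SE 0.16, adjusted p = 0.006). With a pseudocount of 0.1 its difference was -1.35 and did not pass, and it did not pass either in a fit of these 2 groups alone. Over the alternatives its adjusted p reached 0.15, and that of Hspb3 reached 0.033. Of the myoblast markers, Myod1 fell by 0.37 (adjusted p = 0.0091) and Myf5 by 0.57 (adjusted p = 0.005) in siKctd10 at D2. Of the myocyte markers, Myog fell by 0.75 (adjusted p = 0.016) and Mymk, the fusion protein myomaker, by 0.92 (adjusted p = 0.012). The part of the stage of differentiation in the lower Hspb3 and Hspb7 was not tested.

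The more abundant small heat shock proteins did not pass at D2. Hspb1, the most abundant, was at 1314, 2111 and 1750 TPM in D2 siControl and 1587, 172 and 681 in D2 siKctd10. Its difference of -1.57 was the furthest from 0 of the class and came with a wide spread (SE 0.78, adjusted p = 0.31). Hspb8, which works with BAG3 in muscle protein turnover, was at 158, 167 and 150 TPM in D2 siControl and 140, 149 and 121 in D2 siKctd10. Its difference was -0.21 (SE 0.12, adjusted p = 0.37). Hspb2, made from a gene beside Cryab, gave -0.29 (SE 0.29, adjusted p = 0.63). Hspd1 at D2 was at 107, 126 and 124 against 94.7, 92.3 and 90.9 TPM. These groups did not overlap, and the difference of -0.35 did not pass (SE 0.11, adjusted p = 0.11), though it did with median-ratio scaling (-0.44, adjusted p = 0.043) and quantile normalization (-0.40, adjusted p = 0.044). Over all members the D2 median was 0.02, against 0.079 over all genes, and 12 members did not overlap between the groups, where 28.4% of all genes did not.

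**Figure D2:**
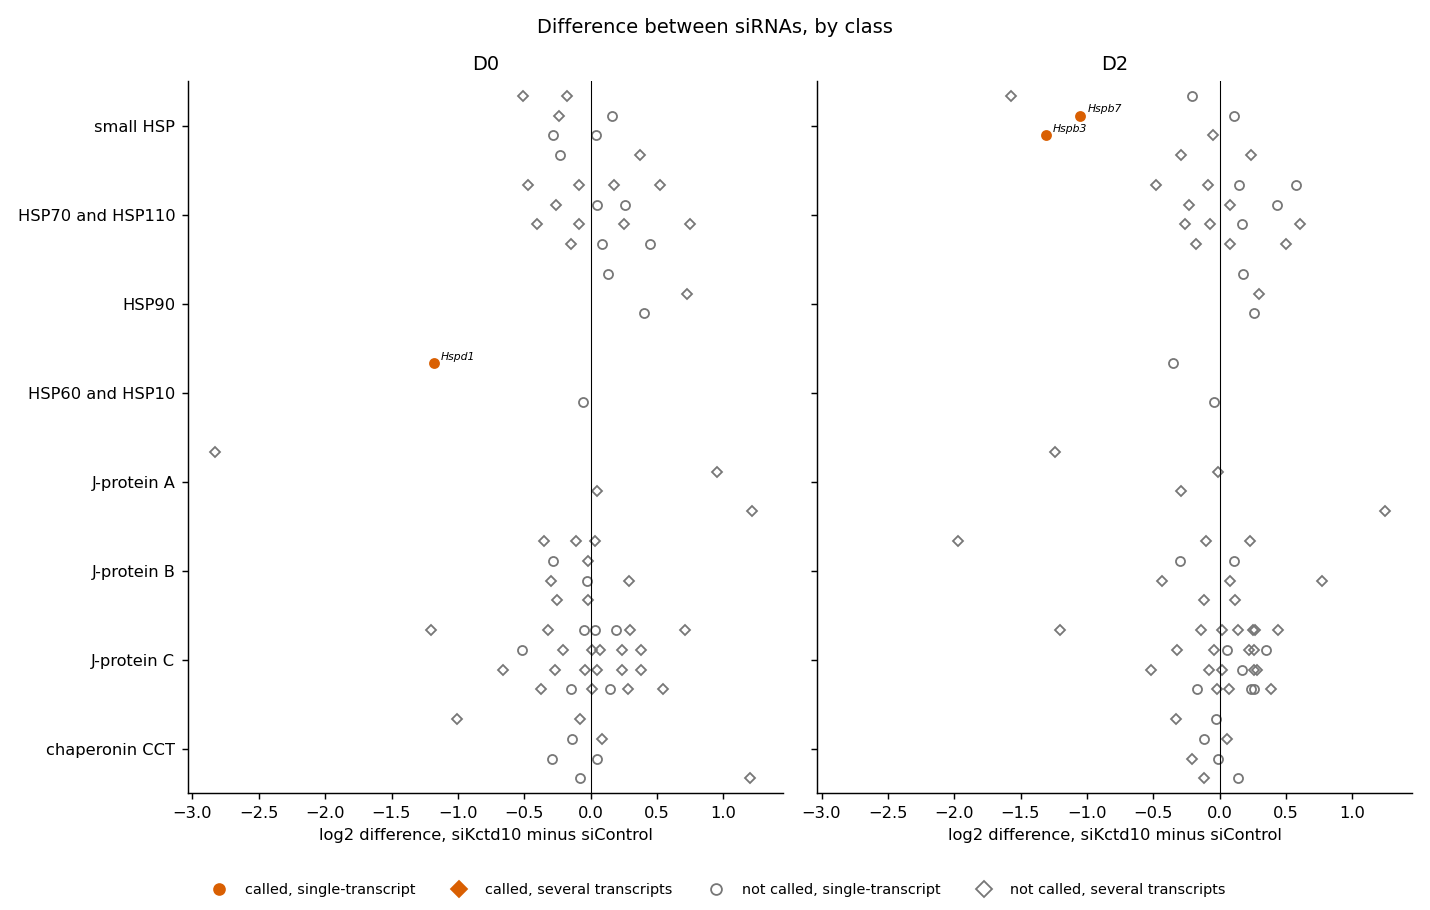
Log2 differences between siKctd10 and siControl (x axis, log2(TPM + 1) scale) of the 74 members in 8 classes (y axis), at D0 and at D2. Filled points passed the test: Hspd1 at D0, and Hspb3 and Hspb7 at D2. Widely spread diamonds, such as Dnaja1 at -2.83, are members with several transcripts.

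Whether the siRNA difference changed with the day was tested as an interaction, which 2 members passed, against 0.742% of all genes. The Hspb3 difference was -1.31 at D2, with an interaction of -1.35 (SE 0.19, adjusted p = 0.016). At D0 it was 0.04, with Hspb3 listed at 0 in 5 of 6 libraries, so a D0 difference could not be seen. The Hspb3 interaction therefore repeats the D2 difference and cannot show a change with the day. Its call was lost with a pseudocount of 0.1 (adjusted p = 0.12), with voom on estimated read pairs (adjusted p = 0.14) and with a replicate block. Its value ran from -2.19 to -1.21 over the alternatives. The Hspd1 difference was -1.18 at D0 and -0.35 at D2, an interaction of 0.83 (SE 0.16, adjusted p = 0.048). That call was lost without any 1 of 11 libraries, all but library 1 of D0 siControl, at adjusted p of up to 0.12, and the value stayed between 0.76 and 0.94. The Hspb7 interaction did not pass (-0.82, SE 0.22, adjusted p = 0.18).

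More members differed between D2 and D0 than between the siRNAs, as did more of all genes. The days differ in serum as well as in differentiation, and these cannot be told apart. In siControl 22 of 74 members passed between D2 and D0, 9 higher and 13 lower, against 35.5% of all genes (21.4% higher and 14% lower). In siKctd10 26 passed, 12 higher and 14 lower, against 36.4% of all genes (23.1% higher and 13.3% lower). Groups did not overlap for 38 members in siControl, against 52.3% of all genes, and for 32 in siKctd10, against 48.4%. Both shares of members (29.7% and 35.1%) are near or below those of all genes. The counts hold Hspb3 and Hspb7, which reached the TPM rule only through D2, so that a rise was needed for their test. Without the 4 members that reached the rule on 1 day only (those and Dnajb7 and Hspb9), 20 of 70 were called in siControl and 24 of 70 in siKctd10. Of the single-transcript members, 12 of 24 passed in each arm, 5 higher and 7 lower (10 of 20 without those 4), where 42.7% and 44.1% of all single-transcript genes did. The median over the members was -0.01 in siControl and 0.01 in siKctd10, against 0.091 and 0.118 over all genes. With median-ratio scaling the median of all genes in siKctd10 moved from 0.118 to 0.004 and that of the members to -0.12, so differences near 0 have no firm sign. The 2 arms do not share libraries, but each arm's D0 and D2 libraries also enter the comparisons between siRNAs above.

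The mitochondrial chaperonin genes Hspd1 and Hspe1 fell in both arms, under both other scalings too. Hspd1 went from 331 to 430 TPM at D0 to 107 to 126 at D2 in siControl, and from 158 to 186 to 90.9 to 94.7 in siKctd10. It fell by 1.70 in siControl (SE 0.11, adjusted p = 1.9e-06) and by 0.87 in siKctd10 (SE 0.11, adjusted p = 0.00018). Hspe1 was at 109, 115 and 117 TPM at D2 in siControl and 117, 109 and 107 in siKctd10, every value under every D0 value. It fell by 0.91 in siControl (SE 0.08, adjusted p = 1.5e-05) and by 0.89 in siKctd10 (SE 0.08, adjusted p = 2.1e-05). The mean TPM of Hspd1 and Hspe1 was 390 and 215 in D0 siControl, 171 and 206 in D0 siKctd10, 119 and 114 in D2 siControl, and 92.6 and 111 in D2 siKctd10. Hspa9 was at 245, 283 and 257 TPM in D2 siControl, below its D0 values, and fell by 0.89 (SE 0.26, adjusted p = 0.024).

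The cytosolic chaperonin was lower at D2 in both arms. In siControl 6 of 8 subunits passed, all lower, where 14% of all genes were called lower. None of the 8 was above 0, and the class median was -0.67. In siKctd10 6 of 8 also passed, all lower, with a median of -0.59, where 13.3% of all genes were called lower. Neither the median-ratio scaling nor the quantile normalization turned a subunit's direction, and the 2 scalings called 6 and 6 subunits in siControl and 7 and 5 in siKctd10. Leaving out both siKctd10 libraries numbered 3 gave 5 in each arm.

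Cct5 was the most abundant subunit, at 1038, 975 and 959 TPM in D0 siControl and 682, 533 and 530 in D2 siControl. In siKctd10 it was at 906, 1063 and 756 and then 650, 705 and 565, and no D2 value reached a D0 value in either arm. Cct5 fell by 0.78 in siControl (SE 0.14, adjusted p = 0.0018). Cct8 was at 479, 542 and 540 TPM in D0 siControl and 320, 395 and 344 in D2 siControl, and fell by 0.56 (SE 0.10, adjusted p = 0.0012). Cct6a was at 545, 529 and 541 TPM before and 355, 350 and 289 after, and fell by 0.70 (SE 0.13, adjusted p = 0.0021).

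Cct7, with several transcripts but steady values, was at 323, 316 and 329 TPM in D0 siControl and 206, 188 and 197 in D2 siControl, and fell by 0.71 (SE 0.08, adjusted p = 9.3e-05). Cct2 fell by 0.64 (SE 0.11, adjusted p = 0.0014) and Tcp1 by 0.94 (SE 0.30, adjusted p = 0.034) in siControl. Cct3 and Cct4 did not pass there, at -0.52 and -0.24, and Cct3 values jumped from 34.2 to 198 TPM within D2 siControl. No subunit passed the interaction of day and siRNA. The 8 subunits together held 0.378 to 0.401% of TPM in D0 siControl and 0.228 to 0.259% in D2 siControl, and 0.334 to 0.411% and 0.227 to 0.25% in siKctd10.

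**Figure D3:**
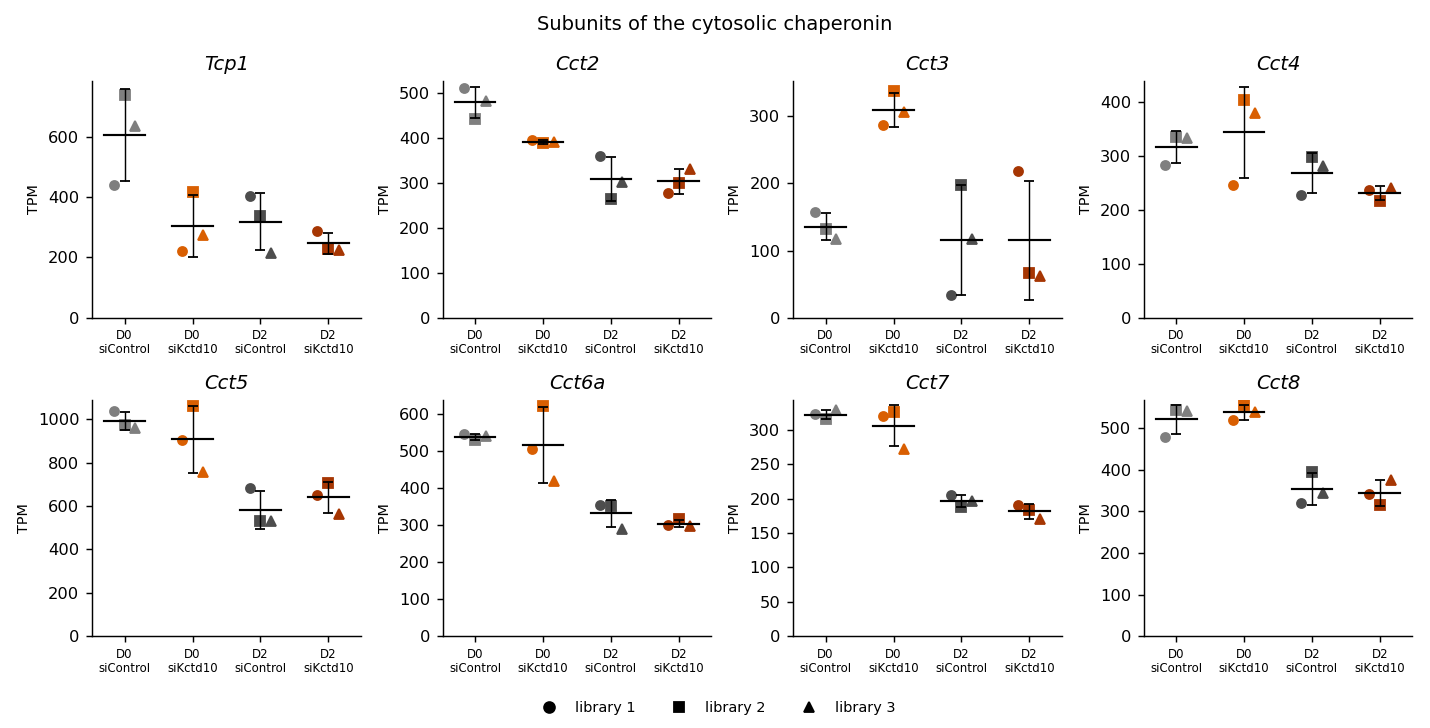
TPM of the 8 chaperonin subunits in each library (y axis, from 0) by group (x axis), with the mean as a line and the SD as a bar (n = 3). Cct5, Cct6a, Cct7 and Cct8 were lower in every D2 library than in every D0 library of the same arm, and Cct3 varied within groups.

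Among the genes classed by symbol as small heat shock proteins, 5 reached the TPM rule on both days. Of these, 1 rose and 1 fell in siControl, and 2 rose (Hspb2 and Hspb11) and 1 fell in siKctd10. Of all genes, 21.4% rose and 14% fell in siControl and 23.1% and 13.3% in siKctd10. For Hspb3 and Hspb7, kept through D2 alone, levels are given with no test between days. Hspb3 was listed at 0 in all 3 D0 siControl libraries and at 3.46 to 4.27 TPM at D2. In siKctd10 it was at 0 to 0.0815 TPM and then 0.647 to 1.27. Hspb7 was at 0.324, 0.312 and 0.113 TPM in D0 siControl, from 2 to 6 estimated read pairs, and at 4.65 to 6 at D2. In siKctd10 it was at 0 to 0.189 TPM and then 1.56 to 2.62. Hspb2 was at 13.5, 11.9 and 13.9 TPM at D0 and 34.7, 28.9 and 29.5 at D2 in siControl, and it rose by 1.18 (SE 0.29, adjusted p = 0.0094).

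Hspb6, known as HSP20, was at 49.9, 39.7 and 50.9 TPM in D0 siControl and 39, 16.9 and 32.1 in D2 siControl. It fell by 0.73 (SE 0.26, adjusted p = 0.05, just inside the threshold) and in siKctd10 by 0.86 (SE 0.26, adjusted p = 0.025). Hspb8 stayed between 111 and 169 TPM in all 12 libraries (0.05 in siControl, SE 0.12, adjusted p = 0.81).

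The J-proteins are given by type, and every type's share called was below that of all genes. Of type A none of 4 passed in either arm. Of type B, 2 of 10 rose in siControl and 3 in siKctd10, and of type C 4 rose and 3 fell in siControl and 5 rose and 3 fell in siKctd10. Dnajb9, the ER-resident ERdj4 that recruits BiP, had the firmest rise. Its TPM was 46.3, 44.8 and 44.1 in D0 siControl and 103, 110 and 112 in D2 siControl, and 43.9, 41.3 and 47.6 and then 111, 111 and 128 in siKctd10. The days were far apart and the siRNAs overlapped. Dnajb9 rose by 1.25 in siControl (SE 0.09, adjusted p = 2.8e-06) and by 1.38 in siKctd10 (SE 0.09, adjusted p = 1.7e-06), and every alternative called both.

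The other named ER members did not pass. Hspa5 gave 0.06 in siControl (SE 0.08, adjusted p = 0.57), with D0 values of 1370, 1447 and 1398 TPM and D2 values of 1581, 1441 and 1392. Dnajc3, the ER J-protein also known as p58IPK, was at 98.3, 90.6 and 110 and then 85, 92.9 and 93.6 TPM, and gave -0.13 (SE 0.10, adjusted p = 0.35). Dnajc10, an ER disulfide reductase, gave 0.21 (SE 0.21, adjusted p = 0.50). Hsp90b1 gave -0.30 (SE 0.17, adjusted p = 0.23). The 3 members with an ER stress element in the window, Hspa5, Hsp90b1 and Dnajc3, are among those that did not pass in siControl. In siKctd10 Hspa5 gave -0.21 (SE 0.08, adjusted p = 0.054), and it passed there under several alternatives, such as median-ratio scaling (-0.34, adjusted p = 0.0045).

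Dnajb2, a neuronal and muscle J-protein that binds ubiquitin, was at 24.8, 25.8 and 27.2 TPM in D0 siControl and 59.2, 39.2 and 47 in D2 siControl. It rose by 0.86 (SE 0.18, adjusted p = 0.004) and in siKctd10 by 0.80 (SE 0.18, adjusted p = 0.0059). Of type C, Dnajc30, a mitochondrial J-protein, was at 20.4, 19.7 and 19.9 TPM and then 37.1, 29.8 and 40.9 in siControl, and rose by 0.80 (SE 0.15, adjusted p = 0.0021). In siKctd10 Dnajc30 rose by 1.16 (SE 0.15, adjusted p = 0.00021). Dnajc18 rose by 0.82, Dnajc28 by 1.16 and Dnajc16 by 0.44 in siControl, and by 0.84, 1.11 and 0.63 in siKctd10.

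The lower type C members were Dnajc9, Dnajc2 and Dnajc11. Dnajc9, a histone chaperone with a J-domain, was at 106, 126 and 108 TPM in D0 siControl and 51.7, 60.1 and 66.7 in D2 siControl, with no overlap. It fell by 0.92 in siControl (SE 0.11, adjusted p = 9.3e-05) and by 1.03 in siKctd10 (SE 0.11, adjusted p = 4.9e-05). Dnajc2, the ribosome-bound J-protein, fell by 0.81 in siControl (SE 0.21, adjusted p = 0.013), though with transcripts matched by introns only its value was 1.39 (adjusted p = 0.38). Dnajc11, of the mitochondrial inner membrane organisation, fell by 0.60 (SE 0.12, adjusted p = 0.0037).

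**Figure D4:**
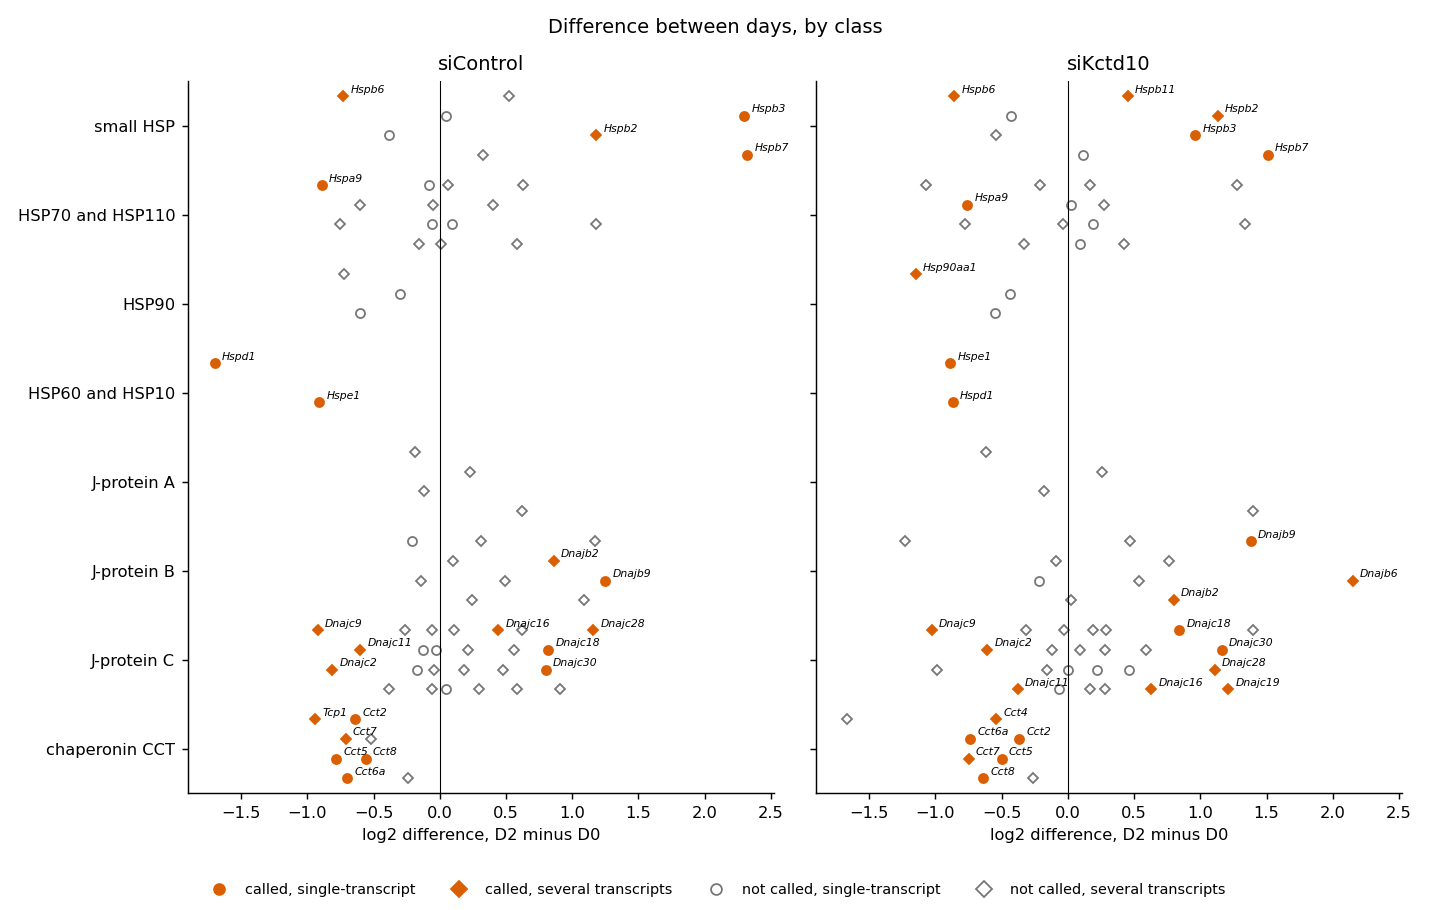
Log2 differences between D2 and D0 (x axis, log2(TPM + 1) scale) of the 74 members in 8 classes (y axis), in siControl and in siKctd10. Filled points passed the test, 22 in siControl and 26 in siKctd10, and all called subunits of the chaperonin lie below 0.

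Some calls between days did not hold with 1 library left out. Besides those above, siKctd10 called Dnajc19 (1.21, adjusted p = 0.0065), Dnajb6 (2.15, adjusted p = 0.031), Hspb11 (0.45, adjusted p = 0.044), Cct4 (-0.54, adjusted p = 0.039), Hsp90aa1 (-1.15, adjusted p = 0.027) and Hspa9 (-0.76, adjusted p = 0.046). Dnajb6, with several transcripts, was at 31.4, 29.1 and 38.5 TPM in D0 siKctd10 and 241, 251 and 54 in D2 siKctd10. In D2 siControl it was at 51.8, 52.3 and 241, so its level jumped between libraries of 1 group in both arms, and the size of its rise is uncertain. Leaving out 1 library at a time kept 39 of all 53 calls, that of Dnajc19 among them, and ended 14. In siControl, Tcp1 and Hspa9 lost theirs without any 1 of 4 libraries. For Tcp1 these were libraries 2 and 3 of each day (adjusted p up to 0.12), and for Hspa9 libraries 2 and 3 of D0 and 1 and 3 of D2 (up to 0.076). Hspb6 lost it without any 1 of 11 libraries, all but library 1 of D2 siControl (up to 0.13).

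In siKctd10, Hsp90aa1 lost its call without library 3 of D0 or library 1 or 2 of D2 (adjusted p up to 0.095). Dnajb6 and Cct2 lost it without any D0 siKctd10 library or library 1 or 2 of D2 siKctd10 (up to 0.1 and 0.095). Cct5 lost it without D0 library 1 or 2 or D2 library 3 (up to 0.071), and Dnajc11 without D0 library 1 or 2 or D2 library 1 or 3 (up to 0.12). Hspb6 lost it without library 1 or 2 of either day (up to 0.078). Cct4 and Hspb11 lost theirs without any 1 of 8 libraries (up to 0.13 and 0.12). For Cct4 these were library 2 or 3 of D0 siControl, 2 or 3 of D0 siKctd10, 3 of D2 siControl, or any D2 siKctd10 library. For Hspb11 they were library 2 of D0 or D2 siControl or any siKctd10 library. Hspa9 lost it without any siControl library, D0 siKctd10 library 3 or D2 siKctd10 library 1 or 2 (up to 0.14). Dnajc2 lost it without any library except D0 siControl library 2 and D2 siKctd10 library 3 (up to 0.15).

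Library 3 of siKctd10 was high in the HSP90 genes. Hsp90ab1 was at 2032, 2294 and 2245 TPM in D0 siControl and 2088, 1797 and 3657 in D0 siKctd10. Hsp90b1 was at 850, 876 and 904 and then 996, 965 and 1620, and the inducible Hsp90aa1, with several transcripts, at 1217, 648 and 962 and then 1261, 1199 and 2292. In each gene library 3 of D0 siKctd10 was the highest of all 12 libraries. Its share of TPM in HSP90 was 0.757%, and the other D0 libraries were between 0.382 and 0.434%.

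At D2 the same numbering was high again, with Hsp90ab1 at 1269, 1661 and 2079 TPM and Hspa9 at 329, 354 and 513 in siKctd10. The ratio of library 3 to the mean of libraries 1 and 2 was 1.88 at D0 and 1.42 at D2 for Hsp90ab1, 1.99 and 1.5 for Hspa9, and 1.65 and 1.21 for Hsp90b1. In siControl those ratios lay between 0.876 and 1.05. Of all single-transcript genes at a mean TPM of 5 or more, 241 of 2904 (8.3%) had a ratio over 1.2 on both days in siKctd10 and 1.96% in siControl. Of the 19 such members 3 did in siKctd10 (15.8%), Hsp90ab1, Hsp90b1 and Hspa9, and 0 did in siControl. This ratio and its threshold were chosen after the values were seen.

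No HSP90 gene passed between the siRNAs. The D0 differences were 0.13 for Hsp90ab1 (SE 0.25, adjusted p = 0.85), 0.40 for Hsp90b1 (SE 0.17, adjusted p = 0.30) and 0.73 for Hsp90aa1 (SE 0.35, adjusted p = 0.35). Without both libraries numbered 3 those of Hsp90ab1 and Hsp90b1 were -0.18 and 0.16, so the direction of Hsp90ab1 turned. Between the days in siControl, Hsp90ab1 gave -0.60 (SE 0.25, adjusted p = 0.093). It was at 1472, 1544 and 1322 TPM at D2 there, and every D2 value was under every D0 value. With both siKctd10 libraries numbered 3 out of the shared estimate of spread, Hsp90ab1 passed (adjusted p = 0.0047), and Hsp90b1 did too (-0.30, adjusted p = 0.0033).

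**Figure D5:**
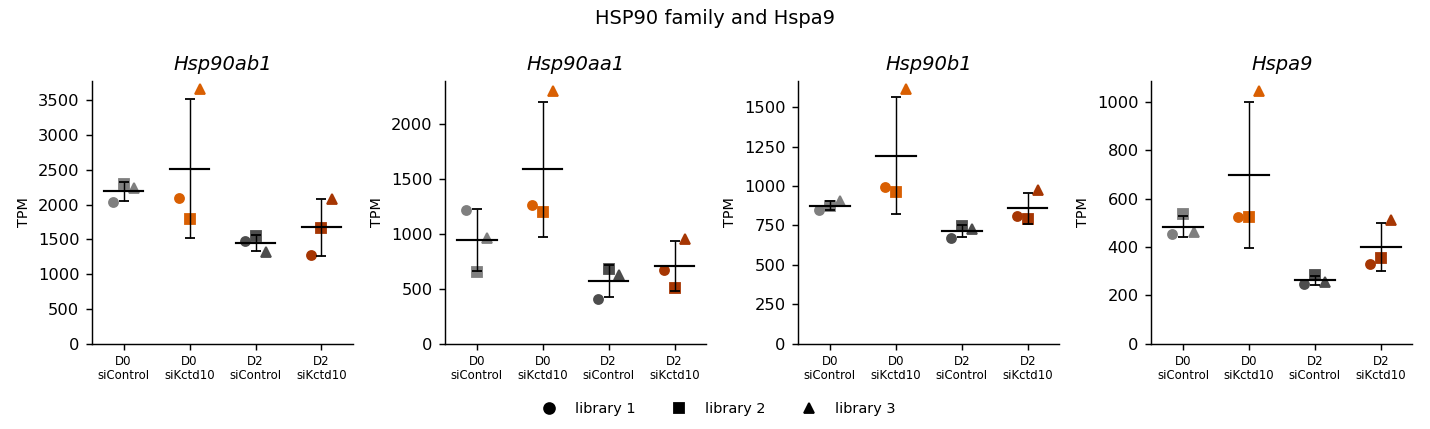
TPM of Hsp90ab1, Hsp90aa1, Hsp90b1 and Hspa9 in each library (y axis, from 0) by group (x axis), with the mean as a line and the SD as a bar (n = 3). Library 3 of D0 siKctd10 (triangle) was the highest of all 12 libraries in each gene, at 3657 for Hsp90ab1.

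Hspa9 was the 1 member of HSP70 and HSP110 called in any comparison. Hspa8, the constitutive HSC70, ranged from 370 to 772 TPM, with 429, 699 and 772 in D0 siControl alone, and gave -0.40 at D0 between siRNAs (SE 0.27, adjusted p = 0.51). Hsph1, HSP110, was at 124, 97.4 and 120 TPM in D0 siControl and 192, 169 and 216 in D0 siKctd10. Those groups did not overlap, and the difference of 0.75 did not pass (SE 0.35, adjusted p = 0.33). Library 2 of D2 siKctd10 widened its spread, at 92.5 TPM between 255 and 275. Without that library the D0 difference passed (0.75, adjusted p = 0.023), and the difference between the days in siKctd10 went from -0.04 to 0.47 (adjusted p = 0.033). Hspa2, the HSP70 of testis and muscle, was at 1.78 to 24.3 TPM in D0 siControl, too spread to compare (1.18 between days, SE 0.81, adjusted p = 0.30).

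Of other named J-proteins, Dnajb4 and Dnajb5, relatives of Dnajb1, gave 0.24 (SE 0.29, adjusted p = 0.57) and 1.17 (SE 0.46, adjusted p = 0.08) between days in siControl. Dnajc5, the cysteine string protein of secretory vesicles, was at 124 to 151 TPM in 11 libraries and at 8.86 in D0 siKctd10 library 3. Dnaja4 ranged from 1.93 to 26.1 TPM. None of these 4 passed in any comparison. Dnajb1 did not either, at -0.14 between days in siControl (SE 0.06, adjusted p = 0.11), but it passed there with median-ratio scaling (-0.24, adjusted p = 0.0081).

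Partners outside the family came from 5 lists chosen by function, and the genes named from them were picked after their values were seen. Of 25 co-chaperones and exchange factors, 0 passed between siRNAs on either day. Between days 1 rose and 6 fell in siControl and 0 rose and 8 fell in siKctd10, with medians of -0.10 and -0.17. Of all genes, 21.4% rose and 14% fell in siControl and 23.1% and 13.3% in siKctd10, which is also the background for the lists that follow. The HSP90 co-chaperone Ptges3 (p23) was at 203, 237 and 225 TPM in D0 siControl and 143, 135 and 161 in D2 siControl, and fell by 0.60 (SE 0.08, adjusted p = 0.00038). Stip1 (HOP), which links HSP70 to HSP90, fell by 0.89 (adjusted p = 0.00063), the cyclophilin Ppid by 0.85 (adjusted p = 0.0033) and Fkbp5 by 1.1 (adjusted p = 2.1e-05).

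Of 9 muscle chaperone partners, Unc45b, Lmod3 and Klhl40 reached the TPM rule only through D2, so their day tests are left out. Of the other 6, 4 rose between days in siControl and 3 in siKctd10, and none of the 9 passed the interaction. Unc45b, the myosin chaperone that works with HSP90, was at 0 to 0.153 TPM in D0 siControl and 9.08, 5.62 and 9.95 in D2 siControl. Klhl41, a sarcomere-associated adaptor, was at 116, 118 and 106 TPM in D2 siControl and 47.8, 64.5 and 41.2 in D2 siKctd10. Klhl41 fell by 1.15 between siRNAs at D2 (SE 0.17, adjusted p = 0.0054), the 1 member of that list to pass. Cryab, the small heat shock protein outside the name rule, ranged from 97.5 to 251 TPM with no call in any comparison.

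Of 17 kept genes of ER folding, 3 rose and 2 fell between days in each arm. Xbp1, the transcription factor of the unfolded protein response, rose by 0.69 in siControl (SE 0.12, adjusted p = 0.0013), and Atf6 by 0.78 (SE 0.08, adjusted p = 3.5e-05). Atf6, with several transcripts, was also the 1 gene of the list higher in siKctd10, at D0 (0.43, adjusted p = 0.022) and at D2 (0.35, adjusted p = 0.032). Of 10 genes of mitochondrial folding and proteolysis, 2 fell between days in siControl and 3 in siKctd10. Grpel1, the exchange factor of mitochondrial HSP70, was at 89.3, 79.5 and 68.7 TPM in D0 siControl and 52, 45.9 and 51.1 in D2 siControl. It fell by 0.66 (SE 0.13, adjusted p = 0.003), and no gene of that list passed between siRNAs.

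Of 14 chaperonin partners, Vbp1, a prefoldin subunit, fell by 0.40 between days in siControl (SE 0.07, adjusted p = 0.0022) and by 0.38 in siKctd10 (SE 0.07, adjusted p = 0.0027). Pfdn4, another subunit with several transcripts, was at 17.8, 20.4 and 33.5 TPM in D0 siControl and 5.77, 5.63 and 10.4 in D0 siKctd10. It was the 1 gene of that list lower in siKctd10 at D0 (-1.59, SE 0.29, adjusted p = 0.022). Pdcl3 rose by 0.43 between days in siControl (adjusted p = 0.011), and the list medians were 0 in siControl and 0.03 in siKctd10.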

How the data were processed

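Poly(A) RNA of 12 C2C12 libraries was compared, with groups taken from the labels. The authors deposited 1 StringTie transcript file per library, which gives coverage, FPKM and TPM for 63759 known transcripts, per the file headers (version 1.3.3b). The submitters' processing notes name HISAT, SAMtools, StringTie 1.1.3, DESeq2 and mm10, and which StringTie version made the values is unclear. The deposited TPM are estimates, and isoforms listed at 0 in single libraries make genes with several transcripts unsteady. No counts per gene were used, so no counting interval is given, and the number of libraries limits the precision.

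Transcripts were assigned to GENCODE genes on GRCm38. Of them 42608 had the same introns as an annotated transcript, 13473 shared 50% or more of their exon bases, and 7678 (3.82 to 4.63% of TPM) stayed unassigned. TPM were summed per gene. A gene was kept where 3 or more libraries reached a TPM of 1. Limma 3.58.1 in R 4.3.3 was fitted to log2(TPM + 1) with a mean for each of the 4 groups, robust variances and a variance trend, which left 8 residual degrees of freedom. Tests were two-sided with Benjamini-Hochberg adjustment over all 13076 genes and a threshold of 0.05. The pseudocount understates the change of low genes. Error is the SD over 3 libraries for levels and the model's SE for log2 differences. The code was tested on simulated data with known changes.

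Estimated read pairs are coverage times transcript length over 202 bases, the pair length inferred from the values, per the deposited coverage. No 2 libraries of a group were the same within sampling noise (chi-square per gene 55.88 to 111.05).

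Named genes are the members called in a comparison, at most 12 in each direction, plus 31 members always named. Any other gene was named after its values were seen. The members, lists and tests were chosen with earlier results of these data known. Alternatives were another pseudocount, other filters, 2 other scalings, a replicate block, fits of only the groups compared, voom on estimated read pairs, no variance trend, introns-only matching, leaving out each library, and, added after seeing the data, single-transcript members only and both siKctd10 libraries numbered 3 left out. Motif and siRNA matches are exact letter matches.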

Additional observations from a re-analysis of the deposited data

Results flagged for a closer look

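For Hspb3 the interaction test gave -1.35 on the log2(TPM + 1) scale (limma, adjusted p = 0.016). Hspb3 was listed at 0 in 5 of 6 D0 libraries, so no siRNA difference could be seen at D0. The test therefore repeats the D2 difference of -1.31 and cannot show a change with the day. Only the D2 libraries, with 3 to 20 estimated read pairs each, carry it. The Hspb3 call was lost under 3 of 20 alternatives, with adjusted p up to 0.14. For Hspd1 the effect of siKctd10 differed between the days by 0.83 (limma, adjusted p = 0.048), with a larger siKctd10 difference at D0 than at D2. The difference was -1.18 at D0 and -0.35 at D2, lower in siKctd10 in 3 of 3 libraries on each day. The Hspd1 interaction sits just inside the threshold and was lost under 17 of 22 alternatives.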

How the results depend on the processing

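Of 53 called results, 35 stayed called in the same direction under every alternative that gave a value, and 39 with each library left out in turn. At D0 the count of members called was 2 in place of 1 when only the groups compared were fitted, which added Cct3 (adjusted p = 0.041), and 1 to 2 with a library left out. At D2 it was 4 in place of 2 with median-ratio scaling, which added Hspd1 and Dnajc9. It was 1 with a pseudocount of 0.1, with only the groups compared, and with introns-only matching, where the single-exon Hspb3 cannot enter. It was 0 with a mean TPM of at least 5, a filter that both called members miss. Between days, counting only single-transcript members gave 12 in each arm in place of 22 and 26, by construction. The interaction count was 0 in place of 2 with a pseudocount of 0.1, with voom and with the replicate block. It was 1 with no filter, with a mean TPM of at least 5, with no variance trend, with introns-only matching and with both siKctd10 libraries numbered 3 left out, and 1 to 2 with a library left out. Where no construction is named, the cause was not tested. Dnajc2 between days in siControl reversed with introns-only matching (1.39, adjusted p = 0.38), and Hsph1 between days in siKctd10, -0.04 as reported, ranged from -0.32 to 0.47 with a library left out. A sign change in a gene called in neither fit was not counted. Scaling moved the split of all called genes from 194 higher and 126 lower to 188 and 207 at D0, from 370 and 251 to 265 and 407 at D2, and from 3021 and 1735 to 2454 and 2284 between days in siKctd10 (median-ratio). In siControl it went from 2803 and 1836 to 2219 and 2307 (quantile), and in the interaction from 49 and 48 to 51 and 81 (median-ratio).

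Replicate numbers were not treated as a pairing. Of 18 same-numbered pairs of libraries, 1 had a correlation of deviations over 0.1 (-0.02 to 0.2), that of the siKctd10 libraries numbered 3 at D0 and D2. A library was closest to its own number in 18 of 36 comparisons, each with 3 libraries to choose from. Whether the numbers mark shared cultures is not stated, and these values do not settle it. With the number as a block, counts were 1, 2, 22, 27 and 0 in the order D0, D2, days in siControl, days in siKctd10 and interaction. The block left the Hspb3 interaction at -1.35 with an adjusted p of 0.054. Depth limits Hspb3 and Hspb7, whose D0 levels rest on at most 6 estimated read pairs.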
